A study of Mus musculus with 6 samples.

Results

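Splicing regulators and transcripts known for detained introns were followed in mouse primary cortical neurons after NMDA receptor stimulation. The group holds 34 genes, taken by symbol from the 38293 rows of the deposited table of raw counts, with exactly 1 row for each symbol, and all 34 were among the 14642 genes tested. They are the 4 CLK kinases, 11 SR proteins, the 2 Tra2 proteins, the 2 L-type cyclins, 3 LUC7-like proteins, 7 other RNA-binding or RS-rich nuclear proteins, the DEAD-box helicases Ddx5 and Ddx17, and 3 further transcripts, Wsb1, Ogt and Mdm4. Wild-type Swiss-Webster cortical neurons dissociated at embryonic day 16 and kept for 13 days in vitro received 50 µM NMDA for 10 minutes and then 50 minutes of drug-free medium (NMDA, 3 libraries), or had no treatment (control, 3 libraries). The growth protocol that the samples share also mentions etoposide, a drug that none of these 6 libraries carries in its labels. The genes were listed with the NMDA and control values of these same libraries already known. Their values in that comparison are therefore a description, and the number that passed a threshold is no independent evidence.

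CLK kinases phosphorylate the arginine-serine-rich (RS) domains of SR proteins, which releases SR proteins from nuclear speckles and lets them bind exons and recruit the splicing machinery. Detained introns are introns left in otherwise spliced, polyadenylated transcripts that stay in the nucleus; many splicing factor and CLK genes carry one, and inhibition of CLK activity is known to change their splicing. In cortical neurons, activity is known to trigger the excision of some such introns. The counts used here are per gene, so spliced and intron-containing transcripts of a gene cannot be told apart, and no intron's splicing was measured.

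In GENCODE M21, the annotation used for gene structure, a retained-intron transcript was annotated for 29 of the 34, with a median of 3 per gene, against 7787 of the other 14455 tested genes with an annotation and a median of 1. Since the list was drawn up around detained-intron transcripts, this describes the choice and is no finding, and Srsf9, Srsf10, Srsf12, Pnisr and Ddx17 had none. Transcripts classed as subject to nonsense-mediated decay were annotated for 30 of the 34, against 3769 of all 14642 tested genes. The members also had more annotated transcripts of any class, with a median of 10 against 5. In the CLK family, exon 4 of all 4 genes lies between introns that each have an annotated retaining transcript. Exons placed in this way were looked for only in these 4 genes. Other members, Nktr and Tra2b among them, also have neighbouring introns with such a transcript. In Clk1 this exon spans chr1:58420121-58420211 on the minus strand and in Clk4 chr11:51273078-51273168 on the plus strand (GRCm38). Both are 91 bases long and identical at 85 positions (93.4%), and the length leaves a remainder of 1 when divided by 3, so skipping the exon shifts the reading frame. The sequences below show how closely the exon is kept between these kinases, with capitals at the positions where they differ.
Clk1 exon 4: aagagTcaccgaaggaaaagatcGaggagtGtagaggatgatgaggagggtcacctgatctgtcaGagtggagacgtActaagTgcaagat
Clk4 exon 4: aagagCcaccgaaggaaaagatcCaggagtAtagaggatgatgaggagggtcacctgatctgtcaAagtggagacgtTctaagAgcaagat

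The donor site that follows exon 4 was nearly the same in the 4 genes. Each line gives the last 3 exonic and first 6 intronic bases, with the first 2 bases of the intron in capitals.
Clk1 donor: gatGTatag
Clk4 donor: gatGTatag
Clk2 donor: gatGTacaa
Clk3 donor: gatGTacag
Over the 55 introns of 19 member genes with an annotated retaining transcript, the commonest letters at these 9 positions were cagGTaagt. Each of the 4 CLK donors matched them at 4 positions, below the median of 6 for the 55. Only introns of protein-coding transcripts that lie inside a single exon of a retained-intron transcript count here. Fewer genes therefore qualify than have such a transcript. For the commonest letters, plus-strand donors shared by several introns were counted once. The intron ends with its acceptor site, given as the last 20 intronic and first 3 exonic bases, with the last 2 bases of the intron in capitals.
Clk1 acceptor: taattattcctcttttttAGatg
Clk4 acceptor: ctttctctcccttactttAGatg
Clk2 acceptor: cctactttctttcgtttcAGatg
Clk3 acceptor: cagcttcttctttctcacAGatg
The intron after exon 4 measured 387 bases in Clk1, 391 in Clk4, 346 in Clk2 and 276 in Clk3, and the one before it 871, 1055, 694 and 2100 bases.

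**Figure D1:**
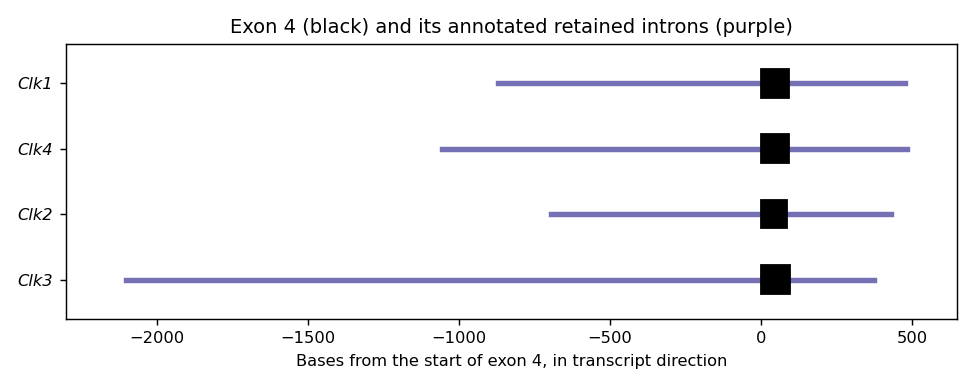
Exon 4 of the 4 CLK genes (black) with its flanking introns (purple), both annotated as retained in a GENCODE M21 transcript, drawn to scale in bases from the start of exon 4 in the direction of transcription. The exon is 85 to 97 bases long; the downstream intron stays between 276 and 391 bases while the upstream one reaches 2100 bases in Clk3.

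Library totals ranged from 15417234 to 18606264 counts in NMDA and from 17860691 to 19183999 counts in control libraries. The stimulation was visible in Fos, an activity-induced transcription factor gene, at 105, 144 and 98.4 CPM (counts scaled by library total and TMM factor) in NMDA libraries 1, 2 and 3, against 3.79, 2.67 and 3.43 CPM in control libraries 1, 2 and 3. Npas4, another activity-induced factor, had 49.8 to 92.3 CPM in NMDA and 3.94 to 6.17 CPM in control libraries, and Egr1 135 to 162 CPM in NMDA and 32.9 to 44.8 CPM in control libraries. Libraries with the same replicate number deviated from their group means together (correlations of 0.57, 0.42 and 0.52 across genes), and the numbers were taken to pair them. The members moved with this number too: their mean log2 CPM was 7.15, 6.98 and 6.77 in NMDA libraries 1, 2 and 3, against 7.35, 7.29 and 7.03 in control libraries 1, 2 and 3. Control library 3 thus lay below NMDA library 1, while each NMDA library lay below its own partner. Mitochondrial genes took 11.2% to 15.3% of the counts in NMDA and 9.77% to 17.6% in control libraries.

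Without the pairing, none of the 34 passed an edgeR quasi-likelihood test at an adjusted p under 0.05 in either direction, beside 0.376% of all tested genes higher and 0.0546% lower. At an unadjusted p under 0.05 there were 13 members lower and 0 higher, beside 8.47% and 5.19% of all tested genes, and DESeq2 called 4 lower (Ogt, Clk1, Luc7l3 and Rbm5) and 0 higher, beside 1.07% and 1.01%. Without a low-count filter edgeR called 4 lower (Clk2, Luc7l3, Rbm5 and Mdm4) and 0 higher, beside 0.545% in either direction. With the replicate number as a block in edgeR, 17 were lower and 0 higher, beside 8.35% of all tested genes lower and 5.65% higher. Their blocked changes ran from -0.72 to -0.28 on the log2 scale, and DESeq2 with the same block called the same 17, beside 3.63% of all tested genes lower and 2.97% higher. Offsets for GC content and length added to the block kept these 17 and added Tra2b as higher, beside 7.6% lower and 6.01% higher. Without both libraries of replicate 2, 11 of the 17 passed, and Ddx17, Luc7l, Srrm1, Srsf11, Srsf2 and Wsb1 did not, beside 4.67% of all tested genes lower and 2.28% higher. Without those of replicate 1, all 17 passed and Clk3, Luc7l2 and Srsf12 joined them, beside 9.1% lower and 8.95% higher. Without those of replicate 3 Srrm1 alone dropped out, beside 5.15% lower and 4.76% higher. No member was called in either direction with DESeq2 size factors (0.376% of all tested genes higher and 0.0341% lower), upper quartile scaling (0.369% and 0.041%), limma-voom (0.362% and 0.0478%) or a stricter filter (0.409% and 0.067%). The same held with 1 control library left out (0.26%, 0.13% and 0.273% higher without control replicate 1, 2 or 3, and 0.00683%, 0.00683% and 0.0137% lower) or 1 NMDA library (0.608%, 0.26% and 0.287% higher without NMDA replicate 1, 2 or 3, and 0.403%, 0% and 0% lower). In the text that follows, "fell" refers to a call in the blocked fit, and none of these genes passed the filtered edgeR test without the block.

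The median log2 change of the 34 was -0.25 without the block, beside -0.0054 for all tested genes. Within pairs 1, 2 and 3 the median was -0.25, -0.28 and -0.26, with 25, 31 and 24 of the 34 below 0. All 3 differences were below 0 in 21 members and above 0 in 2, beside 25.7% and 22.5% of all tested genes. The 3 NMDA libraries lay below all 3 control libraries in 8 members, namely Clk1, Clk2, Srsf2, Luc7l, Luc7l3, Rbm5, Ogt and Mdm4, beside 11.1% of all tested genes, and above them in 0, beside 8.18%. Leaving out single libraries moved the median between -0.34 (without control replicate 3) and -0.14 (without NMDA replicate 3).

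**Figure D2:**
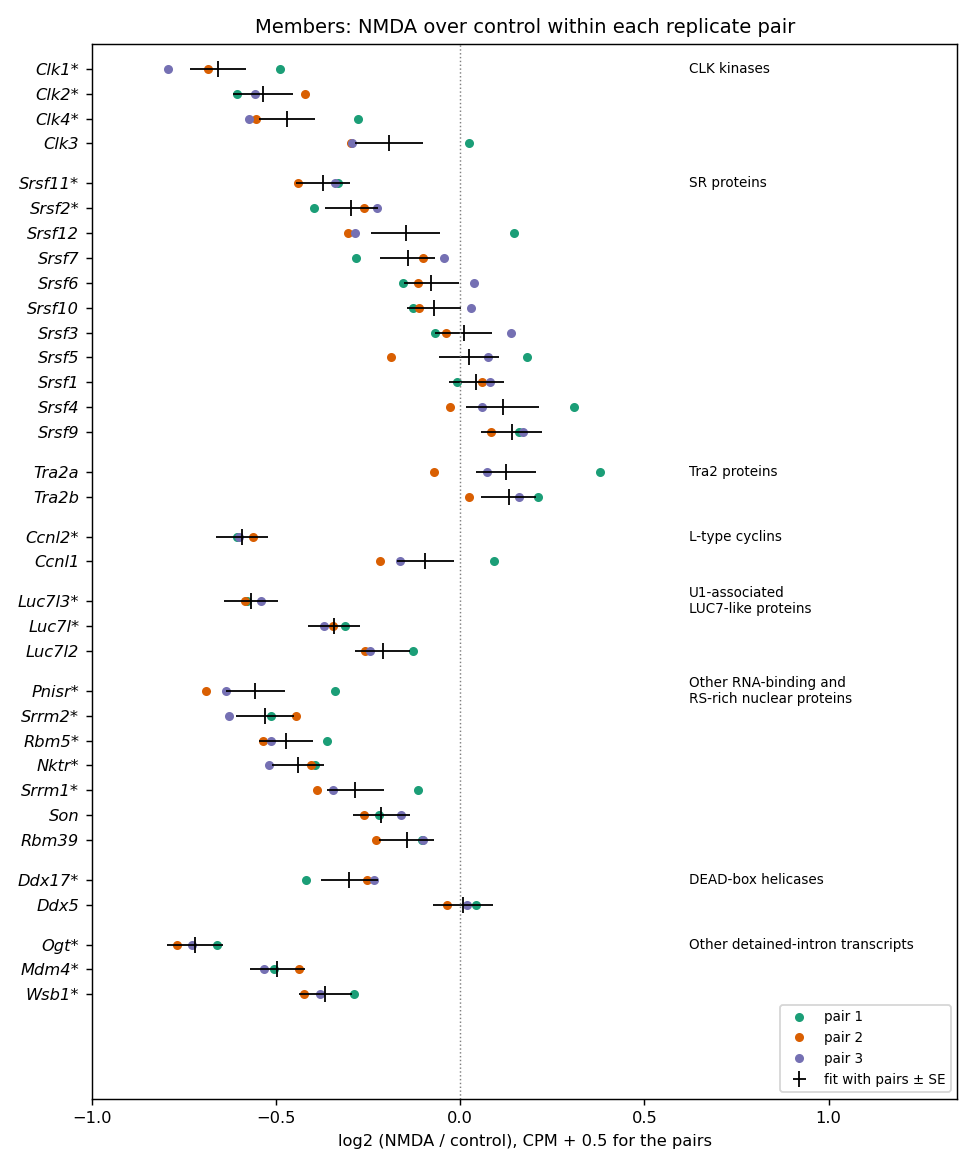
Log2 ratio of NMDA over control for the 34 members, grouped by role: coloured points are the 3 replicate pairs, black bars the blocked edgeR estimate ± SE, and asterisks mark the 17 genes past an adjusted p of 0.05 in that fit. The blocked estimates of the CLK, LUC7-like, RS-rich and further detained-intron groups lie left of 0. Most SR proteins lie around 0, and both Tra2 proteins lie right of it without passing.

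Of the CLK kinases, Clk1, Clk2 and Clk4 fell within pairs and Clk3 did not pass. Clk1 (ENSMUSG00000026034, chr1:58410189-58424066) had 114, 101 and 72.5 CPM in NMDA libraries 1, 2 and 3, against 160, 163 and 126 CPM in control libraries 1, 2 and 3. Every NMDA library was below every control library, and the blocked change was -0.66 ± 0.08 (log2, SE), or 36.6% fewer counts. Clk2 (chr3:89164795-89176921) had 33.8, 30.6 and 25.2 CPM in NMDA libraries, against 51.7, 41.2 and 37.4 CPM in control libraries, again without overlap (-0.54 ± 0.08). Clk4 (chr11:51261730-51281766), the closest relative of Clk1, had 68.0, 54.5 and 42.4 CPM in NMDA libraries, against 82.5, 80.3 and 63.3 CPM in control libraries. Here NMDA library 1 lay above control library 3, so the groups overlapped, while each library lay below its partner (-0.47 ± 0.08). Clk3 (chr9:57750624-57765860) had 28.7, 25.8 and 22.4 CPM in NMDA libraries, against 28.2, 31.8 and 27.5 CPM in control libraries. Its pair 1 difference was 0.02 and its other two were near -0.30, and it shares 15.2% of its exonic bases with Edc3 on the opposite strand.

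SR proteins, the substrates of these kinases, were mostly close to 0: 2 of 11 fell within pairs and the median blocked change was -0.07. Srsf11, an RS-rich protein that takes part in exon choice, had 204, 147 and 130 CPM in NMDA libraries 1, 2 and 3, against 257, 200 and 164 CPM in control libraries 1, 2 and 3 (-0.37 ± 0.07). The groups overlapped widely, since library 1 was the highest of both. Srsf2, which binds exonic enhancers, had 107, 106 and 99.7 CPM in NMDA libraries, against 141, 127 and 117 CPM in control libraries (-0.30 ± 0.07), with no overlap. Its exons share 460 bases with Mettl23 and 288 with Mfsd11 on the opposite strand, and the strand setting of the counting is not given in the sources used here, so part of its reads may belong to them. The abundant shuttling SR proteins did not pass: Srsf1, a regulator of many cassette exons, was at 275 ± 11.7 CPM in NMDA and 267 ± 10.4 CPM in control libraries (SD, n = 3 each), and Srsf3, the smallest family member, at 305 ± 9.66 CPM in NMDA and 304 ± 32.1 CPM in control libraries. Blocked changes of the other 7 that did not pass ran from -0.15 for Srsf12 to 0.14 for Srsf9, with Srsf4, Srsf5, Srsf6, Srsf7 and Srsf10 between them. Srsf4 shares 43.0% of its exonic bases with Gm12992 on the opposite strand. Tra2a and Tra2b, SR-like activators of alternative exons, stood at 0.12 ± 0.08 and 0.13 ± 0.07, and neither passed.

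The L-type cyclins, speckle proteins that partner CDK11 kinases, differed from each other in their values. Ccnl2 had 83.4, 75.3 and 53.0 CPM in NMDA libraries 1, 2 and 3, against 127, 111 and 80.6 CPM in control libraries 1, 2 and 3. NMDA library 1 exceeded control library 3, but the pair differences were almost equal, at -0.61, -0.56 and -0.60, and the gene fell within pairs (-0.59 ± 0.07). Ccnl1 was at 58.3 ± 15.03 CPM in NMDA and 61.6 ± 10.8 CPM in control libraries (SD, n = 3 each), and did not pass (-0.10 ± 0.08). Ccnl1 shares 7.37% of its exonic bases with Gm37305 on the opposite strand. The difference between these cyclins was not tested.

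LUC7-like proteins belong to or contact the U1 snRNP and influence the choice of donor sites. Luc7l3 had 207, 192 and 157 CPM in NMDA libraries 1, 2 and 3, against 309, 288 and 229 CPM in control libraries 1, 2 and 3. The groups did not overlap and the pair differences were -0.58, -0.58 and -0.54 (blocked -0.57 ± 0.07, or 32.6% fewer counts). Luc7l had 137, 123 and 106 CPM in NMDA libraries, against 170, 156 and 137 CPM in control libraries, and fell by 0.34 ± 0.07 on the log2 scale. Its highest NMDA library lay just under its lowest control library. Luc7l2 was at 198 ± 31.1 CPM in NMDA and 228 ± 26.5 CPM in control libraries (SD, n = 3 each) and missed the blocked threshold narrowly (-0.21 ± 0.07, edgeR adjusted p = 0.062). It shares 18.9% of its exonic bases with Gm26699 on the opposite strand.

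**Figure D3:**
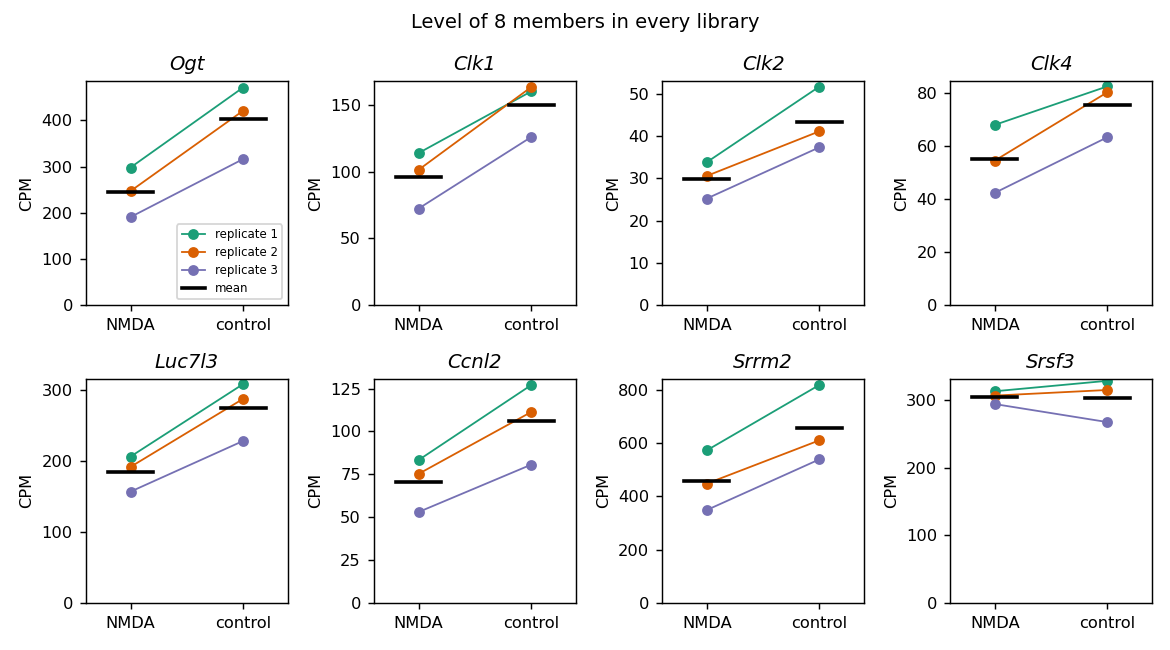
CPM of 8 members in each library, with NMDA left and control right, lines joining libraries of the same replicate number and black bars giving group means. In 7 of the 8 every line lies lower at NMDA; Srsf3 stays near 304 CPM in both groups.

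Among the other RNA-binding and RS-rich proteins 5 of 7 fell within pairs. Rbm5, a component of U2 snRNP complexes, had 122, 107 and 92.7 CPM in NMDA libraries 1, 2 and 3, against 157, 156 and 133 CPM in control libraries 1, 2 and 3 (-0.47 ± 0.07), without overlap. Pnisr, an SR-related protein that binds pinin, had 210, 164 and 120 CPM in NMDA libraries, against 266, 266 and 187 CPM in control libraries (-0.56 ± 0.08). It varied most between NMDA libraries of all members (coefficient of variation 27.3%), and its groups overlapped. Srrm2, a scaffold of nuclear speckles, had 573, 448 and 349 CPM in NMDA libraries, against 818, 610 and 539 CPM in control libraries (-0.53 ± 0.08). Srrm1, which joins splicing complexes to exonic enhancers, had 171, 139 and 122 CPM in NMDA libraries, against 185, 182 and 155 CPM in control libraries (-0.28 ± 0.08). For both Srrm genes NMDA library 1 lay above control library 3. Nktr, a cyclophilin with RS-rich repeats, had 124, 100 and 73.6 CPM in NMDA libraries, against 164, 133 and 106 CPM in control libraries (-0.44 ± 0.07), with overlap. With GC and length offsets in the blocked fit its change was -0.25. Other genes that fell also moved toward 0 with these offsets, among them Clk1 (-0.56), Rbm5 (-0.37), Mdm4 (-0.40) and Clk4 (-0.39). Clk2 (-0.55), Srsf2 (-0.34), Ccnl2 (-0.60) and Wsb1 (-0.37) did not. Nktr shares 10.25% of its exonic bases with E530011L22Rik on the opposite strand. Son, the other speckle scaffold, stood at -0.21 ± 0.08 and Rbm39, a U2AF-related coactivator, at -0.15 ± 0.07; neither passed, though both were below 0 in all 3 pairs.

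The helicases Ddx5 and Ddx17, paralogous RNA unwinding enzymes and splicing cofactors, gave unlike values. Ddx17 had 368, 352 and 306 CPM in NMDA libraries 1, 2 and 3, against 492, 419 and 360 CPM in control libraries 1, 2 and 3, and fell within pairs (-0.30 ± 0.08). Ddx5, the most abundant member, was at 822 ± 16.2 CPM in NMDA and 818 ± 30.5 CPM in control libraries (SD, n = 3 each), with a blocked change of 0.01 ± 0.08 on the log2 scale. The difference between them was not tested.

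All 3 further transcripts fell within pairs, and Ogt had the lowest change of the 34. Ogt (chrX:101640060-101684351) encodes the enzyme that attaches O-GlcNAc to nuclear and cytosolic proteins, and its transcript is known for a detained intron that responds to O-GlcNAc levels. It had 298, 247 and 191 CPM in NMDA libraries 1, 2 and 3, against 471, 421 and 316 CPM in control libraries 1, 2 and 3. Its highest NMDA library lay below its lowest control library, and the blocked change was -0.72 ± 0.08, or 39.3% fewer counts. Mdm4, an inhibitor of p53, had 45.6, 41.7 and 33.2 CPM in NMDA libraries, against 64.9, 56.6 and 48.3 CPM in control libraries (-0.50 ± 0.07), without overlap. Wsb1, a substrate receptor of ubiquitin ligases, had 149, 131 and 97.5 CPM in NMDA libraries, against 182, 176 and 127 CPM in control libraries (-0.37 ± 0.07), with overlap.

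Levels per exonic length (TPM, computed over the union of annotated exons, which includes annotated retained introns) spread from 7.87 ± 0.938 TPM for Mdm4 in NMDA libraries to 415 TPM for Ddx5. In NMDA libraries Ddx5 was highest at 415 ± 26.1 TPM, followed by Srsf5 at 229 ± 14.2 and Srsf1 at 141 ± 14.4 TPM, and in control libraries the order was Ddx5 at 415 ± 50.8, Srsf5 at 225 ± 15.3 and Ddx17 at 160 ± 4.96 TPM (SD, n = 3 each). Ogt held rank 12 at 88.1 ± 14.4 TPM in NMDA and rank 5 at 144 ± 10.6 TPM in control libraries. Around rank 5 the control order is not resolved, since Srrm2 (147 ± 15.2), Ogt and Srsf1 (137 ± 14.8 TPM) lie within their SDs. The CLK kinases kept one order in both groups, with Clk1 at 34.2 ± 6.20, Clk4 at 27.4 ± 4.76, Clk2 at 16.4 ± 1.68 and Clk3 at 8.79 ± 0.673 TPM in NMDA, and 53.4 ± 3.53, 37.7 ± 1.67, 23.7 ± 1.49 and 10.1 ± 1.29 TPM in control libraries. In NMDA libraries Clk1 and Clk4 lay within their SDs. The 17 genes that fell and the 17 that did not pass had like medians in control libraries, 67.8 and 67.0 TPM.

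**Figure D4:**
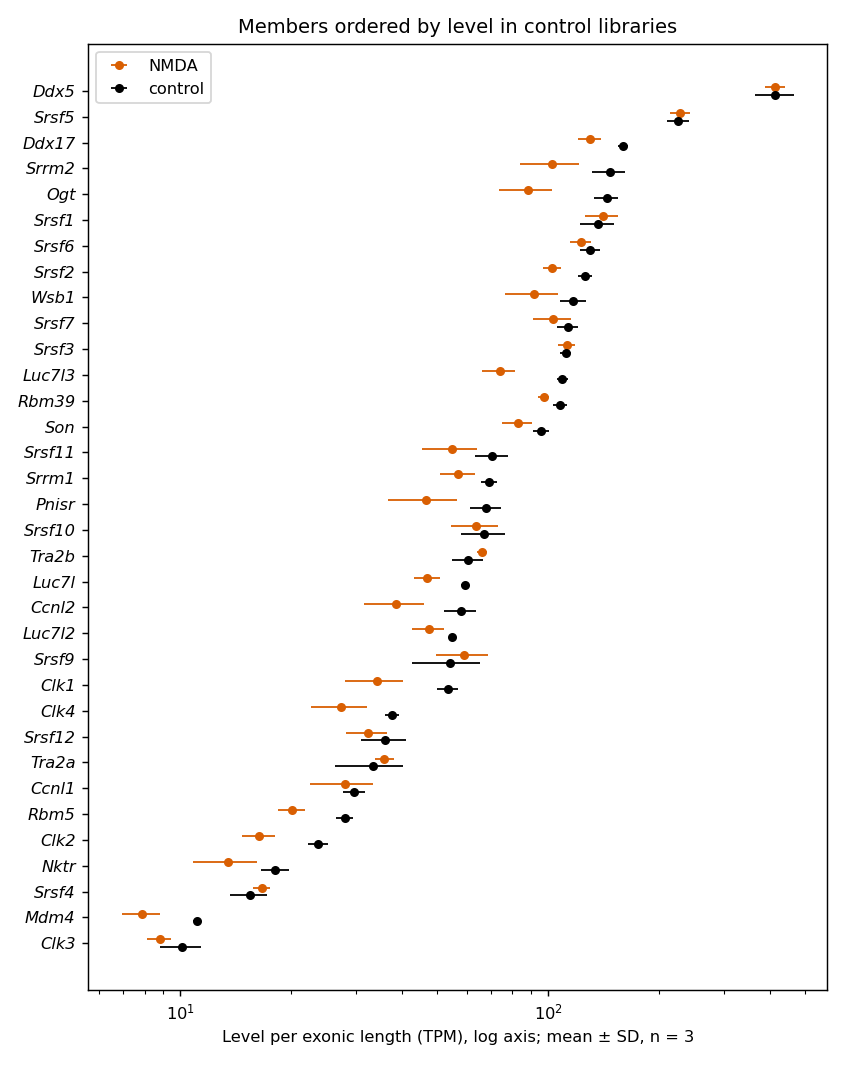
Level per exonic length (TPM, log axis) of the 34 members in NMDA (orange) and control (black) libraries, as mean ± SD of 3 libraries, ordered by the control level. Ddx5 is at 415 TPM in both groups, and the widest gaps are at Ogt, Clk1, Luc7l3 and Ccnl2.

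The 17 that fell had a median of 4 annotated retained-intron transcripts and the other 17 a median of 2; 11 and 8 genes had at least 3. Pnisr and Ddx17 fell with none annotated, and Ccnl1, with 8, did not pass. Over the 34 genes the rank correlation of the blocked change with this number was -0.34, and over the 14455 other genes it was -0.07. Both are given as a description: the genes share the 6 libraries, and longer and better expressed genes tend to have more annotated transcripts.

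Other splicing genes served for comparison, 145 of them tested in 6 lists. None passed the filtered edgeR test without the block. At an unadjusted p under 0.05 there were 27 higher and 9 lower, beside 5.19% and 8.47% of all tested genes. DESeq2 without the block called 5 higher and 3 lower, beside 1.01% and 1.07%. With the block in edgeR 25 were higher and 11 lower, beside 5.65% and 8.35%. These last shares also belong beside the within-pair counts of each list below. DESeq2 with the block called 14 higher and 9 lower, beside 2.97% and 3.63%. The blocked edgeR fit called 6 higher and 8 lower without replicate 2, beside 2.28% and 4.67%. Without replicate 3 it called 13 higher and 10 lower, beside 4.76% and 5.15%. Of the genes named next, Rbm17, U2af1, Srek1, Snrpd2, Snrpd3, Eif4a3, Upf3a and Rbm8a were not called by DESeq2 with the block. The median log2 change without the block was -0.25 for the members, against 0.06 for these genes. Of 9 SR protein kinases and phosphatase partners 1 fell within pairs, Srpk1 (-0.37 ± 0.07), the main cytoplasmic SR kinase; Prpf4b (-0.19 ± 0.07), Dyrk1b (-0.30 ± 0.13) and Ppp1r8 (-0.13 ± 0.07) did not pass. Of 25 other RS-domain and speckle proteins Rbm17 (0.24 ± 0.07) and U2af1 (0.28 ± 0.08), which recognise acceptor sites or the U2 complex, rose, and Sfswap (-0.35), Srek1 (-0.26) and Cwc22 (-0.45) fell; Rbm25 (0.16 ± 0.08) did not pass. The hnRNP proteins, many of which counteract SR proteins at exons, had 11 of 30 higher and 0 lower within pairs, with Ptbp1 (0.42), Hnrnpab (0.37), Pcbp1 (0.45) and Hnrnpa0 (0.40) having the smallest p; their median was 0.18.

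Of 20 neuronal and developmental regulators 5 rose and 2 fell within pairs, including Rbfox3 (0.40) and Khdrbs1 (0.30), higher, and Tia1 (-0.56) and Tial1 (-0.32), U1 recruiters at weak donor sites, lower. The core spliceosome had 4 higher and 4 lower of 46, beside 5.65% and 8.35% of all tested genes. Those higher included Snrpd2 (0.23) and Snrpd3 (0.24), Sm ring proteins. Those lower included Prpf39 (-0.73), a U1 snRNP protein, and Rnpc3 (-0.82), of the minor spliceosome. Of 15 genes for nonsense-mediated decay and the exon junction complex 3 rose, Eif4a3 (0.27), Upf3a (0.30) and Rbm8a (0.23), and 1 fell, Smg1 (-0.55), the kinase that phosphorylates Upf1.

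**Figure D5:**
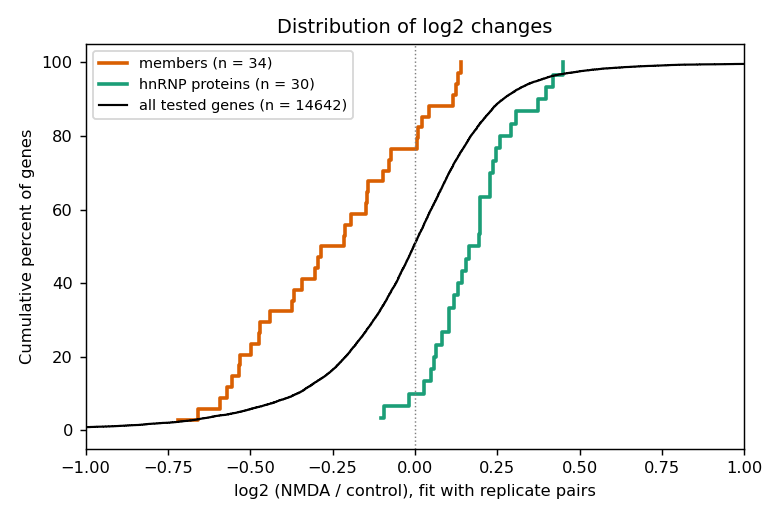
Cumulative percent of genes against the log2 ratio of NMDA over control in the fit with replicate pairs, for the 34 members, the 30 hnRNP proteins and all 14642 tested genes, on an x axis cut at -1 and 1. The members' curve lies left of that of all genes, with a median of -0.25, and the hnRNP curve right of it, with a median of 0.18.

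Cell type markers were summed per library, since in bulk RNA fewer cells of a type and less RNA per cell cannot be told apart. The 10 astrocyte markers summed to 2366 to 3602 CPM in NMDA and 2194 to 2861 CPM in control libraries, 10 excitatory neuron markers to 1167 to 1355 CPM in NMDA and 1332 to 1468 CPM in control libraries, and 10 inhibitory neuron markers to 613 to 658 CPM in NMDA and 563 to 596 CPM in control libraries. The log2 ratio of the astrocyte sum, NMDA over control, was 0.109, 0.379 and 0.333 in pairs 1, 2 and 3. It was -0.095, -0.191 and -0.228 for the excitatory sum, and 0.084, 0.122 and 0.152 for the inhibitory sum. The excitatory sum did not stand for each of its markers. Their median log2 difference was 0.215, -0.1125 and -0.117 in pairs 1, 2 and 3, so pair 1 had the other sign. Without the block 6 of the 10 excitatory markers were below 0 and 4 above. Within pairs 7 astrocyte markers were higher and 0 lower, and 1 excitatory marker was higher and 1 lower. The 6 oligodendrocyte markers summed to 42.6 to 175 CPM in NMDA and 39.3 to 200 CPM in control libraries, and the 5 precursor markers to 616 to 878 CPM in NMDA and 505 to 885 CPM in control libraries, both highest in replicate 1 of each group. Fibroblast and mural markers, 7 of 8 tested, summed to 142 to 259 CPM in NMDA and 112 to 151 CPM in control libraries. The 10 microglial markers summed to at most 5.83 CPM in any library, and the 6 endothelial markers to at most 23.8 CPM, with 1 at 0 throughout. The nuclear RNA Meg3, chosen after its values were seen, had 2163, 1090 and 796 CPM in NMDA libraries 1, 2 and 3, against 4030, 2522 and 1937 CPM in control libraries 1, 2 and 3, and fell within pairs (-1.13 ± 0.10), whereas Malat1 (-0.18 ± 0.09) and Neat1 (-0.03 ± 0.11) did not pass. The part of cell make-up, of nuclear RNA or of mitochondrial share in the members' values was not tested.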

How the data were processed

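RNA was measured in 6 libraries, 3 NMDA and 3 control. The table deposited by the authors holds raw read counts per Ensembl gene. Trimmomatic, TopHat and HTSeq appear in the submitters' processing notes, with mm10 and GRCm38.p6 as builds; no version, annotation release or strand setting is given in the sources used here. Libraries were poly(A)-selected and stranded, per the labels' protocols. The members and lists were chosen with earlier results of these data known. Counts were tested with edgeR 4.0.16 (R 4.3.3) after filterByExpr (minimum count 10, minimum total 15) and TMM scaling, in quasi-likelihood F tests on group alone, adjusted by Benjamini-Hochberg over 14642 genes at 0.05. The SE is the log2 change divided by the root of F. The labels do not say what a replicate number stands for. Deviations from the group means correlated at 0.42 to 0.57 between libraries sharing a number and at -0.43 to -0.01 between others. The deviations of a gene sum to 0 in each group, so the negative values follow in part from the centring. A fit blocked by number (residual degrees of freedom 2, and 4 unblocked) is therefore given as well. In the Results, the changes printed with an SE and the calls within pairs come from that blocked fit. This pairing was read from the same counts that the blocked fit tests, and the blocked p-values depend on it. The protocol text mentions 2 biological replicates where each group holds 3 libraries, so the spread behind each p-value may be technical. Libraries of a group differed by 8.18 to 59.0 chi-square units per degree of freedom, more than sampling noise. Alternatives were DESeq2 1.42.0, its size factors, upper quartile scaling, limma-voom (limma 3.58.1), other filters, GC and length offsets (mgcv 1.9.3), and left-out libraries or pairs. Within-pair differences used log2(CPM + 0.5). GENCODE M21 (GRCm38) gave positions, transcript classes and sequences. Genes named were all members, with library values for those called in either fit and for the CLK kinases, and in each other list the 4 with the smallest p without the block, plus all calls where these were 6 or fewer. The 2153 rows without a symbol stayed in the tests. The scripts were tested on simulated counts.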

Additional observations from a re-analysis of the deposited data

How the results depend on the processing

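Without the block no member was called under DESeq2 size factors, upper quartile scaling, limma-voom, a 1 CPM floor in every library of either group, or any single left-out library (0 in both directions), while the DESeq2 test and the absence of a filter each gave 4 lower. The replicate block gave 17 lower with edgeR, with DESeq2 and with GC and length offsets (the same 17), and these offsets also gave 1 higher, Tra2b; without the libraries of replicate 1, 2 or 3 the blocked fit gave 20, 11 and 16 lower. Other splicing genes higher numbered 5 with DESeq2, 3 without a filter, 25 with the replicate block, 14 with DESeq2 and the block, 30 with the offsets, and 25, 6 and 13 without the pairs in turn; those lower numbered 3 with DESeq2, 11, 9 and 10 in the 3 blocked fits, 13, 8 and 10 without the pairs, and 0 to 2 with single libraries left out (0 higher). The members' median was -0.25 in the main fit, -0.21 with block and offsets, -0.26, -0.21 and -0.23 without pair 1, 2 or 3, and -0.34 to -0.14 with single libraries left out; the cause was not tested. Signs turned only in uncalled genes near 0 with libraries left out: Srsf6 (-0.22 to 0.0719), Ccnl1 (-0.28 to 0.10), Srsf10 (-0.14 to 0.015), Srsf3 (-0.0792 to 0.0758, and -0.041 in the block without replicate 3), Srsf5 (-0.0825 to 0.10, and -0.0453 in the block without replicate 1) and Ddx5 (-0.0142 to 0.0384). Each group had 3 libraries, and counts per gene hold no information on single introns.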

Other observations

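Across the tested genes outside the list, the blocked values differed with the number of annotated retained-intron transcripts, a grouping chosen after the members' values were seen. Of 529 genes with 6 or more, 22.5% were lower and 2.08% higher within pairs, with a median log2 change of -0.10 and medians of -0.10, -0.08 and -0.12 in pairs 1, 2 and 3. Of 2294 genes with 3 to 5, 11.5% were lower and 4.88% higher (median -0.03), of 4964 with 1 to 2, 7.19% and 5.22% (median 0.01), and of 6668 with none, 6.81% and 6.58% (median 0.01). The groups also differed in exonic length, with medians of 8183, 6400, 5132 and 3344 bases in that order, and in level, with medians of 50.5, 36.5, 27.6 and 12.7 CPM in control libraries, and the part of these in the shares was not tested.

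Cwc22, a spliceosome and exon junction factor, differed more between replicate numbers than between groups: it had 235, 80.6 and 204 CPM in NMDA libraries 1, 2 and 3, against 318, 105 and 297 CPM in control libraries 1, 2 and 3, so replicate 2 was low in both.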
